A study of Homo sapiens with 6 samples.

Results

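H19 and its imprinted neighbours on the short arm of human chromosome 11 (band 11p15) were followed in RNA from cells in low or normal oxygen. The cells were labelled Huh7, the name of a hepatocellular carcinoma line. The 7 genes described are H19, IGF2, CDKN1C, KCNQ1OT1, KCNQ1, PHLDA2 and SLC22A18, out of 58478 genes in the table. They were picked by name and position, and H19 was also read transcript by transcript. Hypoxia libraries came from wild-type cells labelled Huh7 that spent 24 h at 1% oxygen, and normoxia libraries from the same line at 21% oxygen, with 3 libraries in each group. Both groups grew in serum-supplemented medium, and both are a single line, so other lines or tissue were not examined. The labels call the libraries biological replicates without describing separate cultures, and p-values therefore measure the spread between these libraries, which may be technical. Libraries are named by their column, C4 to C6 for hypoxia and C1 to C3 for normoxia.

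The 11p15 cluster holds a pair of imprinted domains, in which one parental copy of a gene is silenced. In the domain nearer the telomere, CTCF binds an unmethylated control region on the maternal copy, where H19 is transcribed, and the paternal copy transcribes the fetal growth factor IGF2. In the other domain, the long noncoding RNA KCNQ1OT1 is transcribed from the paternal copy and keeps CDKN1C, KCNQ1, PHLDA2 and SLC22A18 silent there. H19 is abundant in fetal liver, falls after birth and is often expressed again in liver tumours. The libraries give total RNA of both copies, and parental origin was not measured.

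H19 (ENSG00000130600.18, chr11:1995176-2001470 on GRCh38, minus strand) is a spliced RNA that is not translated. Its first exon contains the hairpin of microRNA miR-675, whose mature arms repress messenger RNAs through their seeds. The hairpin lies at chr11:1996759-1996831, on the minus strand, within exon 1 of transcript H19-203. It and both arms are shown because the H19 rows are separated below by whether their model contains them. Capitals mark the mature arms in the hairpin line and the seed, bases 2 to 8, in each arm line (RefSeq, GRCh38.p14).
miR-675 hairpin: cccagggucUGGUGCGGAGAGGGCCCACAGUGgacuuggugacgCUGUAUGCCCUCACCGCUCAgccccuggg
hsa-miR-675-5p: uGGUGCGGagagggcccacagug
hsa-miR-675-3p: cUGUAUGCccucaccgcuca

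H19-203 and H19-202 are the leading transcripts of the gene, and they changed by different amounts. In GENCODE release 29 their models differ only at the 5′ end and at the start of exon 5. H19-203 starts farther upstream, and its exon 5 starts 6 bases earlier. Those 6 bases are in capitals in the H19-203 line, and the H19-202 line shows the join without them. Both joins run from the end of exon 4 into exon 5 between chr11:1995765-1995895, minus strand. The deposited rows are 2358 bases for H19-203 and 2309 for H19-202, against 2348 and 2281 in release 29, so the authors' models were not exactly these.
H19-203 exon 4 to 5 join: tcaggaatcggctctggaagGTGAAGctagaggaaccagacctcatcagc
H19-202 exon 4 to 5 join: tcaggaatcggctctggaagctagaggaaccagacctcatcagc

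The libraries held between 37621426 and 40794783 expected counts each. Of 8 genes known to be induced by low oxygen, 8 rose, among them NDRG1, at 7640 ± 203 CPM in hypoxia and 379 ± 6.999 CPM in normoxia (SD, n = 3 each), where CPM are counts scaled to a common library size by TMM. Of all genes tested, 36.5% rose. The labelled liver identity was not matched by its defining markers: of 15 hepatocyte genes, 5 were at 0 counts in all libraries, AFP, APOA1 and TTR among them, and ALB was at 0.00935 CPM in hypoxia and 0.0422 CPM in normoxia. CPS1, a urea cycle enzyme also found in intestine, carried most of the hepatocyte sum of 1664 to 1915 CPM in hypoxia and 1983 to 2274 CPM in normoxia. Of the other 14, SERPINA1, HNF4A and TF rose. Some markers of other cell types were also counted, but many were too low to test. Those tested were 8 of 19 trophoblast, 2 of 9 intestinal and 3 of 8 blood cell markers. CDX2, an intestinal marker, and PTPRC, a blood cell marker, were at 0 counts in all libraries. The sums below therefore do not show that these cell types were present. The trophoblast sum was 1119 to 1188 CPM in hypoxia and 1706 to 1775 CPM in normoxia, mostly CGA, the common subunit of glycoprotein hormones, with 5 of 19 markers at 0 counts. The intestinal sum, of 9 markers, was 2836 to 3220 CPM in hypoxia and 1382 to 1513 CPM in normoxia, mostly ALPI. The blood cell sum, of 8 markers and mostly CD68, was 44.1 to 53.5 CPM in hypoxia and 7.27 to 7.35 CPM in normoxia. The mesenchymal sum, mostly COL1A1, was 81.5 to 95.6 CPM in hypoxia and 91.8 to 98.5 CPM in normoxia. The endothelial sum was 5.92 to 6.41 CPM in hypoxia and 11.6 to 12.4 CPM in normoxia. The part of these marker levels in the results was not tested. In bulk libraries, a change in how many cells express a gene and a change in RNA per cell cannot be told apart.

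H19 rose about 4-fold from an already high level. It had 20775, 22802 and 20339 CPM in hypoxia (C4, C5, C6), against 5369, 5150 and 4847 CPM in normoxia (C1, C2, C3). Every hypoxia library was far above every normoxia library, and the libraries within each group were close together. The means were 21305 ± 1314 CPM in hypoxia and 5122 ± 262 CPM in normoxia (SD, n = 3 each). The fold was 4.16, a log2 change of 2.06 ± 0.05 (SE; adjusted p = 1.41e-10, edgeR's quasi-likelihood test with Benjamini-Hochberg adjustment). Of the 17396 genes tested, 6.72% had a larger log2 change than H19.

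The amount of RNA involved was large. H19 took 1.87%, 2.003% and 1.81% of all expected counts in hypoxia, against 0.532%, 0.505% and 0.479% in normoxia. By counts it ranked 3 among all genes in each hypoxia library and 8, 11 and 13 in the normoxia libraries. A single noncoding gene thus stood among the most counted RNAs in both conditions, and closer to the top in hypoxia. Per length it ranked 6 to 7 in hypoxia and 17 to 18 in normoxia.

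**Figure D1:**
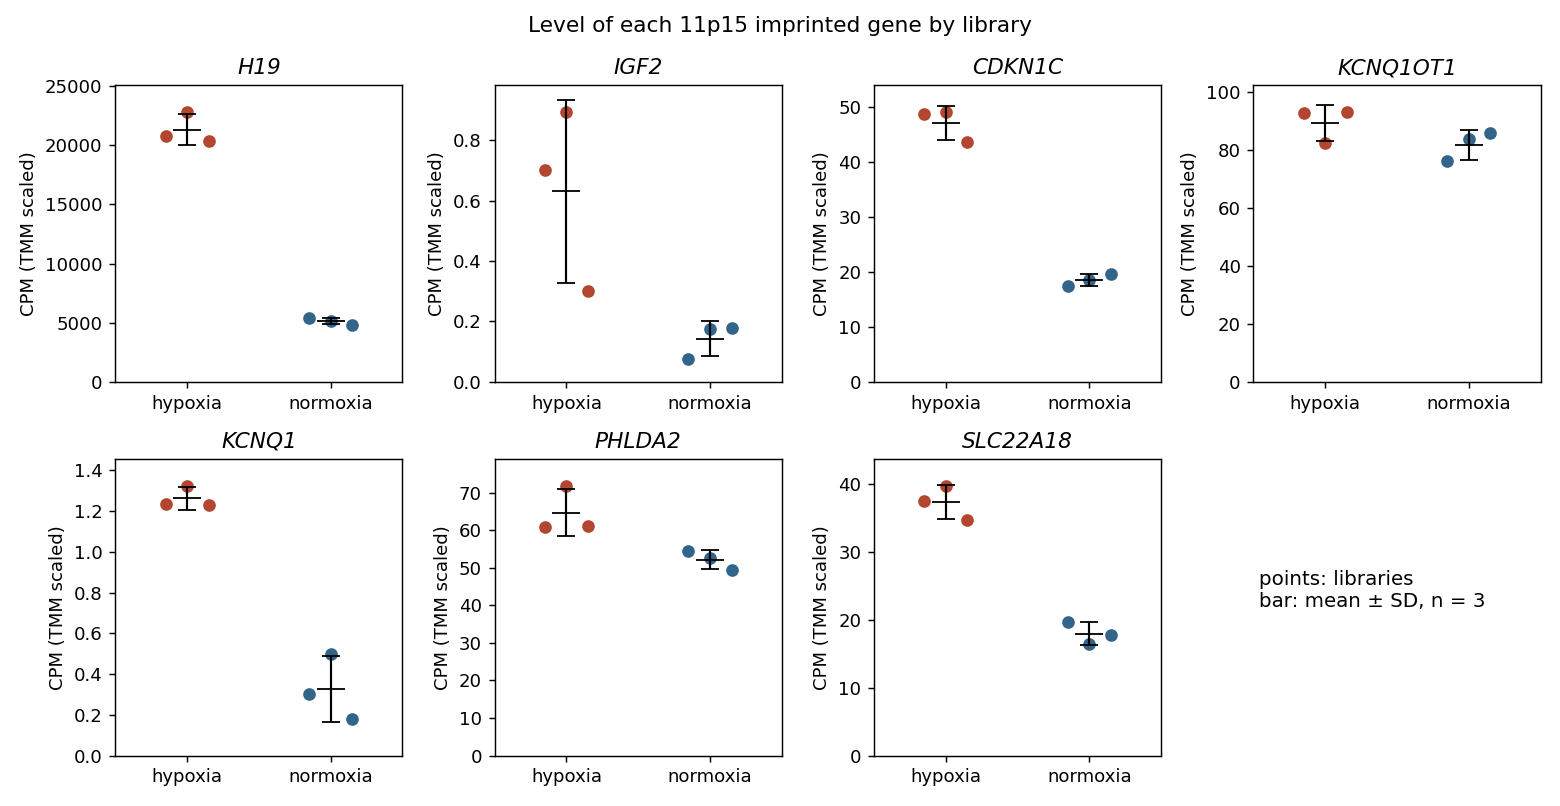
Level of each of the 7 genes in CPM on linear axes that start at 0, with hypoxia on the left and normoxia on the right of each panel. Points are libraries and bars are mean ± SD (n = 3). The groups are apart in 6 panels, as for 75.7% of all genes tested, and overlap for KCNQ1OT1; IGF2 and KCNQ1 have axes that end near 1 CPM.

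IGF2 (ENSG00000167244.19, chr11:2129112-2149603, minus strand), the growth factor that shares enhancers with H19, was near the limit of detection. It had 25, 31 and 10 counts in hypoxia, against 2.8, 7 and 7 counts in normoxia. In CPM this was 0.701, 0.893 and 0.299 in hypoxia, against 0.0755, 0.175 and 0.178 in normoxia, where 3 counts correspond to 0.0842 to 0.0898 CPM in hypoxia and 0.0750 to 0.0765 CPM in normoxia. The groups did not overlap, but hypoxia C6 lay closer to the normoxia libraries than to the other hypoxia libraries, and the lowest normoxia library was under 3 counts. The call was a rise, with a log2 change of 2.12 ± 0.52 (SE; adjusted p = 0.00369, edgeR). Its 7 transcript rows were too low to test. IGF2-203 held 66.9% to 92.0% of the counts in each library except normoxia C1, whose 2.8 counts were on IGF2-206. The overlapping read-through gene INS-IGF2, which shares 1460 exon bases, was at 0 counts, and a second release 29 identifier for IGF2 held 3 counts in all.

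The ratio of H19 to IGF2 was not shown to differ between conditions. The log2 ratio of counts, with a pseudocount of 0.5, was 14.8, 14.6 and 15.98 in hypoxia and 15.97, 14.8 and 14.6 in normoxia. Each group had a single high library, and the groups overlapped over their whole range. The means differed by 0.027 (exact permutation test, two-sided, p = 0.8, 3 ratios tested). With a pseudocount of 5 the difference was 0.58 (exact permutation p = 0.3). With 3 libraries against 3 the smallest p of this test is 0.1.

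CDKN1C (ENSG00000129757.13, chr11:2883213-2885773, minus strand) encodes p57Kip2, an inhibitor of cyclin-dependent kinases that holds cells out of the cycle. It had 48.8, 49.1 and 43.6 CPM in hypoxia, against 17.5, 18.5 and 19.6 CPM in normoxia. All hypoxia libraries were well above all normoxia libraries. The means were 47.1 ± 3.09 CPM in hypoxia and 18.5 ± 1.06 CPM in normoxia (SD, n = 3 each). The log2 change was 1.35 ± 0.07 (SE; adjusted p = 2.37e-08, edgeR). Its most counted row, CDKN1C-204, rose by 1.37 ± 0.16 and the next, CDKN1C-201, by 1.02 ± 0.27 (log2, SE; adjusted p = 0.00173 and 0.0350, edgeR on transcripts). Their shares of the gene overlapped between the groups: CDKN1C-204 held 66.4% to 73.7% in hypoxia and 58.8% to 79.5% in normoxia.

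KCNQ1 (ENSG00000053918.16, chr11:2444684-2849110, plus strand), the pore subunit of a voltage-gated potassium channel, was low in all libraries and rose. It had 44, 46 and 41 counts in hypoxia, against 12, 20 and 7 counts in normoxia. As CPM these were 1.23, 1.33 and 1.23 in hypoxia, against 0.302, 0.4998 and 0.178 in normoxia. The hypoxia libraries lay close together and above all normoxia libraries, which spread more widely. The log2 change was 1.94 ± 0.36 (SE; adjusted p = 0.000589, edgeR). Row KCNQ1-206 rose by 3.03 ± 0.52 (adjusted p = 0.00700), while for KCNQ1-202, the most counted row, the log2 change was 2.36 ± 1.00 with an adjusted p of 0.131 (edgeR on transcripts). KCNQ1-206 held 54.6%, 40.8% and 43.0% of the gene in hypoxia, against 13.4% to 26.3% in normoxia. These shares did not overlap (exact permutation p = 0.1), and they rest on few reads.

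KCNQ1OT1 (ENSG00000269821.1, chr11:2608328-2699994, minus strand), the unspliced RNA that starts inside KCNQ1 and runs against it, was the member whose change did not pass the test. It had 92.5, 82.1 and 93.0 CPM in hypoxia, against 75.9, 83.6 and 85.7 CPM in normoxia. Hypoxia C5 lay below the upper normoxia libraries, and the other hypoxia libraries lay above all of them. The means were 89.2 ± 6.11 CPM in hypoxia and 81.8 ± 5.15 CPM in normoxia (SD, n = 3 each). The log2 change was 0.13 ± 0.06 (SE; adjusted p = 0.0928, edgeR). The sign depended on the scaling: it was -0.03 with library totals (adjusted p = 0.739), and 0.19 with upper-quartile scaling (adjusted p = 0.0136). Without hypoxia C5 it was 0.18 (adjusted p = 0.0160), so the call depended on that library as well as on the scaling.

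KCNQ1OT1 and KCNQ1 share 121 exon bases on opposite strands. The libraries are stranded per the labels' protocols, but whether strand was used in counting is not given in the sources used here, so reads there cannot be assigned. These shared bases are a small part of the KCNQ1OT1 model, which the annotation gives as a single long exon. That exon lies wholly within the span of KCNQ1, so unspliced KCNQ1 RNA could also give reads on it. How many reads this concerns, for either gene, was not measured.

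Relative to CDKN1C and to KCNQ1, KCNQ1OT1 was lower in every hypoxia library than in any normoxia library. Its log2 ratio to CDKN1C counts was 0.92, 0.74 and 1.09 in hypoxia, against 2.11, 2.18 and 2.13 in normoxia. Its log2 ratio to KCNQ1 counts was 6.21, 5.94 and 6.23 in hypoxia, against 7.92, 7.35 and 8.81 in normoxia. Neither ratio overlapped between the groups, and the differences of means were -1.22 for CDKN1C and -1.90 for KCNQ1 (exact permutation test, p = 0.1 each, the smallest it can give). These ratios are within libraries, so no scaling between libraries enters them. They restate the gene changes given above, rises of CDKN1C and KCNQ1 beside little change of KCNQ1OT1, and are not separate evidence.

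PHLDA2 (ENSG00000181649.6, chr11:2928273-2929455, minus strand), a small pleckstrin-homology protein that restrains placental growth, rose by the smallest amount of those that passed. It had 60.9, 71.8 and 61.1 CPM in hypoxia, against 54.3, 52.7 and 49.5 CPM in normoxia. The groups did not overlap, with hypoxia C5 standing above the rest. The log2 change was 0.31 ± 0.07 (SE; adjusted p = 0.00218, edgeR). The call was lost with library totals, where it was 0.16 (adjusted p = 0.0523).

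SLC22A18 (ENSG00000110628.14, chr11:2899721-2925246, plus strand), a transporter-like membrane protein, rose about 2-fold. It had 37.4, 39.7 and 34.7 CPM in hypoxia, against 19.7, 16.4 and 17.7 CPM in normoxia. All hypoxia libraries lay above all normoxia libraries. The means were 37.3 ± 2.50 CPM in hypoxia and 18.0 ± 1.65 CPM in normoxia (SD, n = 3 each), a log2 change of 1.05 ± 0.08 (SE; adjusted p = 5.48e-07, edgeR). It shares 227 exon bases with SLC22A18AS on the other strand, which had only 20 to 36 counts per library.

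The makeup of SLC22A18 RNA was read from the shares of its rows. The protein-coding row SLC22A18-214 held 46.0%, 47.5% and 48.9% of the gene in hypoxia, against 57.2%, 56.4% and 64.3% in normoxia. The row SLC22A18-208, annotated as a retained intron, held 31.2%, 30.7% and 30.8% in hypoxia, against 18.4%, 23.5% and 17.2% in normoxia. Neither share overlapped between the groups (exact permutation p = 0.1 each, the smallest possible). Both rows rose in level, SLC22A18-208 by 1.68 ± 0.14 and SLC22A18-214 by 0.70 ± 0.11 (log2, SE; adjusted p = 0.000460 and 0.00585, edgeR on transcripts). Summed over classes, the 4 retained-intron rows held 35.1% ± 0.314 in hypoxia and 21.1% ± 2.28 in normoxia, and the 5 protein-coding rows 56.8% ± 1.34 in hypoxia and 72.6% ± 2.77 in normoxia (SD, n = 3 each). These shares rest on how RSEM divided reads among overlapping models.

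Over the 7 genes, 6 rose, 0 fell and 1 did not pass the test. Of all genes tested, 72.8% passed in either direction, so most genes of the table moved, and those that rose were 36.5%. Of the 7, 5 rose by 2-fold or more, against 17.5% of all genes tested. Groups did not overlap for 6 of the 7, against 75.7% of all genes tested. The median log2 change of the 7 was 1.35, and that of all genes tested was 0.02. With library totals the medians were 1.19 for the 7 and -0.13 for all genes, so the 7 moved down with the whole table.

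**Figure D2:**
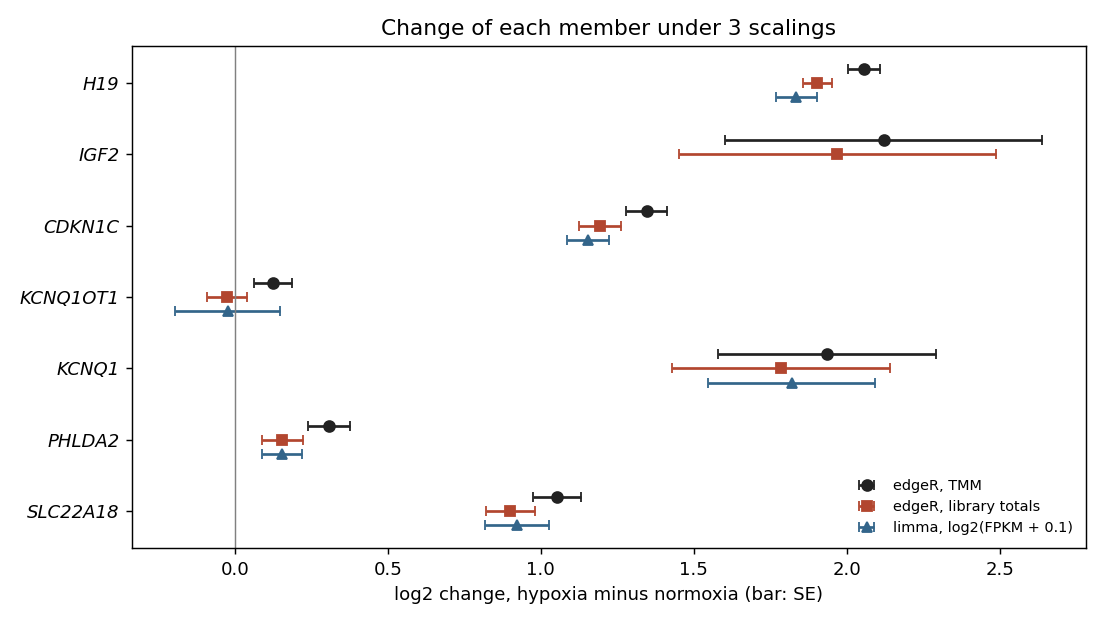
Log2 change of each member, hypoxia minus normoxia, under edgeR with TMM scaling, edgeR with library totals, and limma on log2(FPKM + 0.1), where FPKM is counts scaled to row length and library size; bars are SE. H19, CDKN1C, KCNQ1 and SLC22A18 stay right of 0.5 under all 3, and KCNQ1OT1 lies on either side of 0 (0.13, -0.03 and -0.02). IGF2 has no limma value because it was below the FPKM filter.

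Per length, H19 stood far above its neighbours. On the FPKM scale, recomputed from counts and row lengths and summed over rows, it was at 9894 ± 515 in hypoxia and 2768 ± 53.9 in normoxia (SD, n = 3 each). PHLDA2 followed, at 62.3 ± 5.402 FPKM in hypoxia and 55.9 ± 2.66 FPKM in normoxia. CDKN1C was at 25.2 ± 1.75 FPKM in hypoxia and 11.3 ± 0.557 FPKM in normoxia, and SLC22A18 at 22.2 ± 1.45 FPKM in hypoxia and 11.8 ± 1.75 FPKM in normoxia. CDKN1C exceeded SLC22A18 in each hypoxia library, while in normoxia their order differed between libraries. The lowest genes were KCNQ1OT1, KCNQ1 and IGF2. In hypoxia KCNQ1OT1, at 0.787 to 0.908 FPKM, and KCNQ1, at 0.779 to 0.906 FPKM, were level. In normoxia KCNQ1OT1, at 0.820 to 0.925 FPKM, stood above KCNQ1, at 0.101 to 0.240 FPKM. IGF2 was last, at 0.162 ± 0.0376 FPKM in hypoxia and 0.0762 ± 0.00538 FPKM in normoxia.

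Of the 12 H19 rows, 9 were abundant enough to test and 9 rose, with log2 changes from 1.67 to 2.80. Among all 74527 transcript rows tested, 29.5% passed in either direction and 15.6% rose. H19-203 had 12134, 13010 and 11562 CPM in hypoxia, against 3524, 3197 and 2973 CPM in normoxia, a log2 change of 1.92 ± 0.08 (SE; adjusted p = 2.88e-05, edgeR on transcripts). H19-202 had 4012, 4492 and 3994 CPM in hypoxia, against 612, 605 and 577 CPM in normoxia, a log2 change of 2.80 ± 0.06 (adjusted p = 5.40e-06, edgeR on transcripts). Both rows were higher in every hypoxia library, and H19-202 had the largest change of the 9. H19-207, annotated as a retained intron, changed by 1.68 ± 0.11 and H19-204 by 1.67 ± 0.20 (log2, SE; adjusted p = 0.000206 and 0.00189, edgeR on transcripts).

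**Figure D3:**
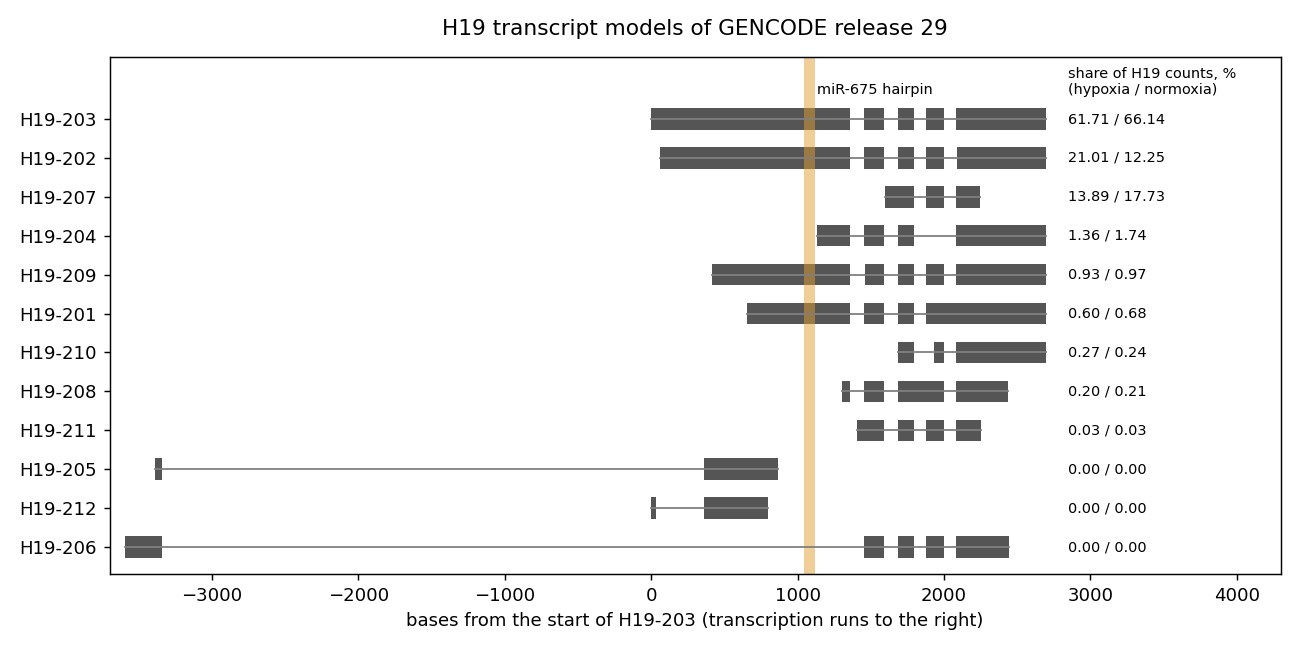
Exons of the 12 H19 transcripts in GENCODE release 29, as bases from the start of H19-203, with transcription to the right; the shaded band is the miR-675 hairpin. The numbers on the right are mean shares of H19 counts in hypoxia and normoxia; H19-203, H19-202 and H19-207 hold nearly all counts, and the rows from the far upstream start hold almost none.

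The balance between the leading H19 transcripts differed between conditions. H19-202 held 20.6%, 21.2% and 21.2% of H19 counts in hypoxia, against 12.2%, 12.3% and 12.4% in normoxia. The libraries of each group were nearly identical and the groups far apart, with a difference of means of 8.75 percentage points (exact permutation test, p = 0.1, the smallest possible, 4 rows tested). H19-203 held 62.4%, 61.5% and 61.2% in hypoxia, against 70.0%, 64.8% and 63.6% in normoxia. Here the groups were close, without overlap, and normoxia C1 stood highest. The difference was -4.43 points, and -2.51 points without normoxia C1.

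The shares of H19-207 and H19-204 overlapped between conditions. H19-207 held 13.2%, 13.9% and 14.5% in hypoxia, against 14.3%, 18.6% and 20.3% in normoxia. The low normoxia library overlapped the hypoxia group (exact permutation p = 0.2). H19-204 held 1.36% ± 0.329 in hypoxia and 1.74% ± 0.274 in normoxia (SD, n = 3 each), with overlap. The other 8 rows each averaged below 1% in both groups. As a share of summed FPKM, which accounts for row length, H19-202 held 17.4% in hypoxia and 9.69% in normoxia, while H19-203 held 50.1% in hypoxia and 51.3% in normoxia. On that scale the difference was 7.72 points for H19-202 and -1.20 points for H19-203 (exact permutation p = 0.1 and 0.9).

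Set against each other alone, H19-202 made up 24.9%, 25.7% and 25.7% of the pair in hypoxia, against 14.8%, 15.9% and 16.3% in normoxia. The groups did not overlap (exact permutation p = 0.1). RSEM divided the reads that match both rows, and where the deposited models differ was not determined.

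**Figure D4:**
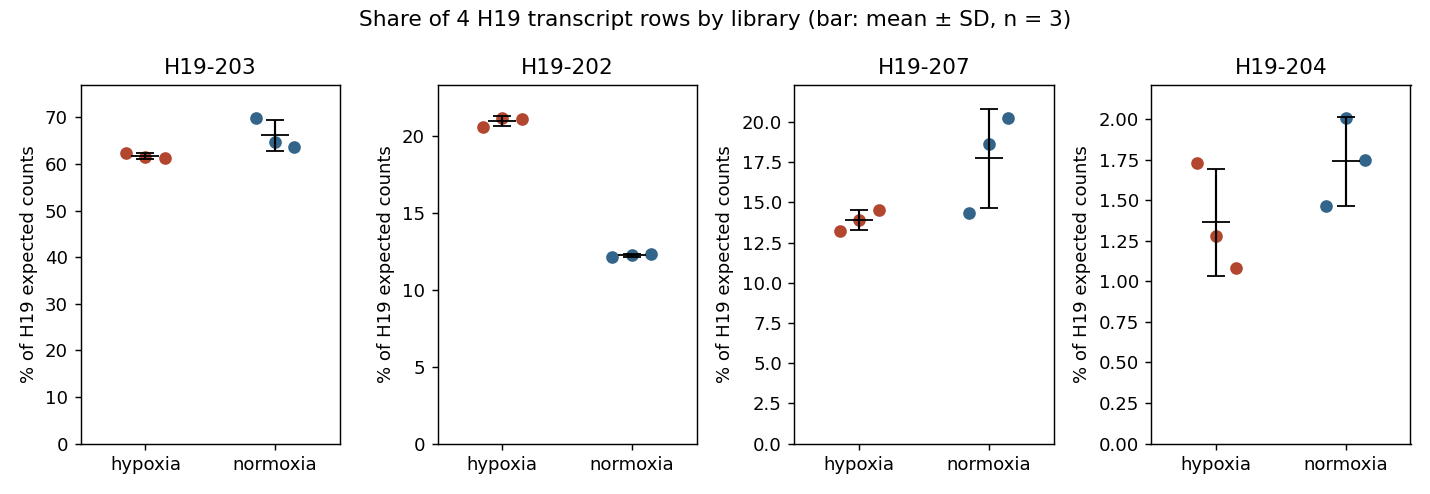
Share of H19 expected counts held by each of 4 transcript rows, in percent, with hypoxia on the left and normoxia on the right; points are libraries and bars are mean ± SD (n = 3). H19-202 is near 21.0% in hypoxia and 12.3% in normoxia with tight libraries, while the other panels show overlap or a small gap.

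Models that contain the miR-675 hairpin in release 29 were 4 of the 12 rows (H19-203, H19-202, H19-209 and H19-201). They held 84.6%, 84.3% and 83.9% of H19 counts in hypoxia, against 83.8%, 78.9% and 77.5% in normoxia. The groups did not overlap, and hypoxia C6 and normoxia C1 nearly touched (exact permutation p = 0.1). The table's own MIR675 row was at 0 counts in all libraries. It shares 73 exon bases with H19 on the same strand, and its 0 is not a measure of the mature microRNA, which was not measured. Only 5 of the 12 H19 rows have their release 29 length in the deposited table, and a longer deposited model could also hold the hairpin. H19-207 is the largest row counted as without it, at mean shares of 13.9% in hypoxia and 17.7% in normoxia. Its deposited length is 944 bases, against 489 in release 29, so this split is uncertain.

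The far upstream start of H19 gave almost no reads. RefSeq places its start 3391 bases upstream of the start of H19-203, and the rows H19-205 and H19-206 begin nearby. Together they had 18.9, 2.28 and 0 counts in hypoxia, against 0 counts in each normoxia library. Beside the 190143 to 791382 H19 counts per library, these are too few to compare. The 300 bases around the RefSeq start (chr11:2001217-2001516, RefSeq, GRCh38.p14) held 0 matches on either strand to ACGTG or GCGTG, cores of the hypoxia response element, which occur in 21.4% and 36.5% of 35116 promoters. They also held 0 matches to the CTCF core motif, found in 0.1% of promoters. H19-203 itself held 0 matches to the let-7 seed match CTACCTC, present in 15.8% of transcripts of similar length. These counts say only that the letters are not in those windows.

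Close to H19, the largest change was in a noncoding RNA on its 3′ side. MRPL23-AS1 (chr11:1983237-1989920, minus strand) begins 5256 bases beyond the 3′ end of H19, on the same strand. It had 28.6, 34.0 and 30.6 CPM in hypoxia, against 1.54, 1.35 and 1.48 CPM in normoxia. The groups were more than an order of magnitude apart, with a fold of 21.3 and a log2 change of 4.41 ± 0.11 (SE; adjusted p = 1.05e-10, edgeR). LINC01219 (chr11:1991096-1993670, plus strand), between the pair, had 2.08, 2.10 and 1.74 CPM in hypoxia, against 0.201, 0.250 and 0.306 CPM in normoxia, a log2 change of 2.95 ± 0.28 (adjusted p = 3.23e-06, edgeR). MRPL23, a mitochondrial ribosomal protein gene that MRPL23-AS1 is named for, fell to 9.99 ± 1.53 CPM in hypoxia, against 18.9 ± 0.989 CPM in normoxia (SD, n = 3 each; log2 change -0.92 ± 0.11, SE). The noncoding pair next to H19 thus rose, while MRPL23 fell. MRPL23 (chr11:1947278-1984522, plus strand) overlaps the span of MRPL23-AS1 on the opposite strand. Whether strand was used in counting is not given, so reads in that overlap cannot be assigned.

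Farther out, the pattern was mixed. From CTSD to OSBPL5 the table lists 66 genes, 59 of them not members, of which 27 had no counts and 15 were tested. Among these 15 there were 8 that rose, 3 that fell and 4 that missed the threshold, and their median log2 change was 0.47. Over all genes tested, 36.5% rose and 36.3% fell, with a median of 0.025. TH, tyrosine hydroxylase, near IGF2, was at 2.55 ± 0.0864 CPM in hypoxia and 0.277 ± 0.110 CPM in normoxia (log2 change 3.19 ± 0.29, SE). LSP1, a leukocyte actin-binding protein, was at 2.57 ± 0.0900 CPM in hypoxia and 0.622 ± 0.103 CPM in normoxia (2.04 ± 0.22). Both are low and both rose. CTSD, the lysosomal protease cathepsin D, was at 410.5 CPM in hypoxia and 255.3 CPM in normoxia (0.69 ± 0.05). CD81, a tetraspanin, was at 106.7 CPM in hypoxia and 79.4 CPM in normoxia (0.43 ± 0.05). NAP1L4, a histone chaperone beside PHLDA2, fell to 184.0 CPM in hypoxia, against 217.6 CPM in normoxia (-0.24 ± 0.04). SNORA54, a small nucleolar RNA inside NAP1L4, rose by 1.35 ± 0.51 at under 1 CPM, and its call was lost in 6 of 16 alternatives. OSBPL5, at the far end, did not pass (-0.08 ± 0.08).

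**Figure D5:**
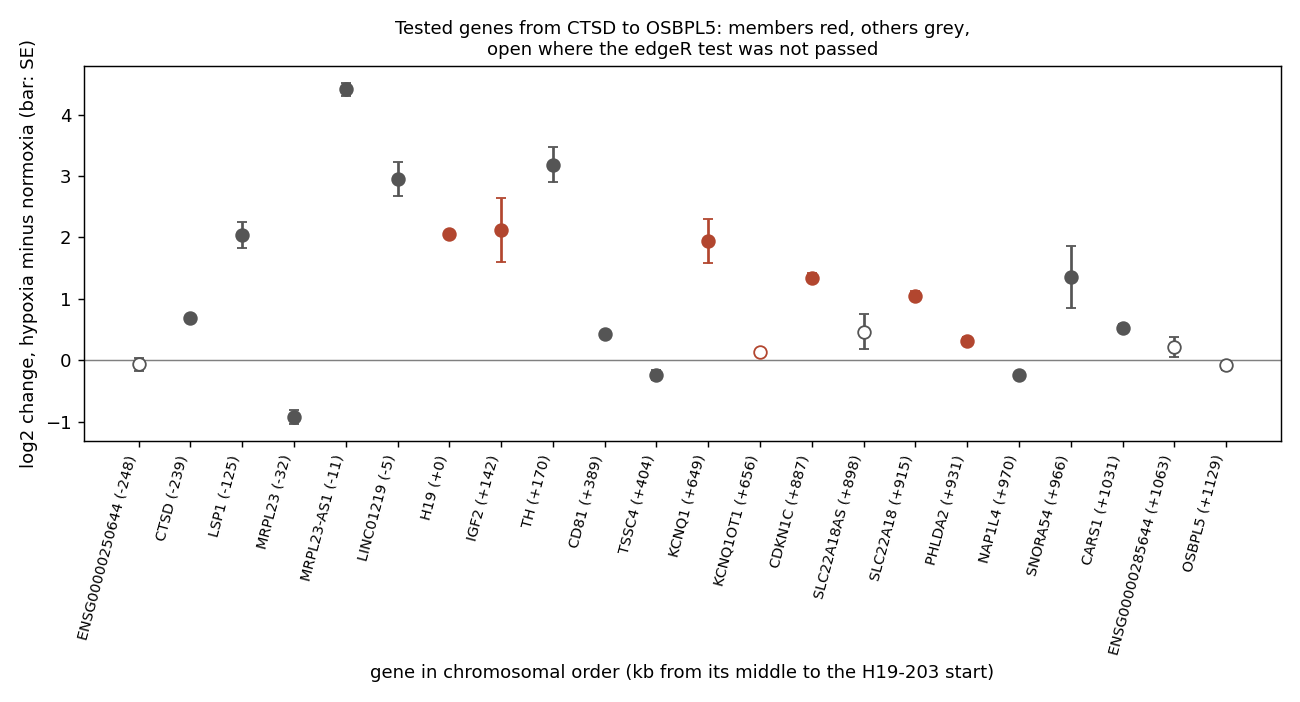
Log2 change, hypoxia minus normoxia, of the 22 tested genes from CTSD to OSBPL5 in chromosomal order, with the distance in kb from each gene's middle to the H19-203 start in parentheses; bars are SE, members are red and open points did not pass the test. MRPL23-AS1 has the highest value (4.41) and MRPL23, beside it, the lowest (-0.92).

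The list of 28 neighbours kept for the domain, which reaches to ZNF195, gave 14 tested genes, with 6 risen, 4 fallen and 4 short of the threshold. Its median log2 change was 0.18 with TMM scaling and 0.03 with library totals. Risen and fallen genes made up 36.5% and 36.3% of all genes tested. ZNF195, a zinc-finger gene on the centromeric side, fell to 15.9 ± 0.481 CPM in hypoxia, against 45.5 ± 2.72 CPM in normoxia.

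Of 61 imprinted genes outside 11p15, 27 were tested: 7 rose, 16 fell and 4 missed the threshold (median -0.33). The shares over all genes tested were 36.5% risen and 36.3% fallen. The difference from the 11p15 members was not tested. TP73, a p53 relative, was at 2.90 ± 0.570 CPM in hypoxia and 0.1003 ± 0.0898 CPM in normoxia. GRB10, an adaptor that restrains insulin and IGF1 receptor signalling, was at 408 ± 8.24 CPM in hypoxia and 98.0 ± 1.36 CPM in normoxia. ZDBF2 was at 94.6 ± 8.15 CPM in hypoxia and 22.6 ± 0.705 CPM in normoxia. These rose, while ERAP2, an aminopeptidase, fell to 2.48 ± 0.117 CPM in hypoxia, against 7.91 ± 0.585 CPM in normoxia.

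Of 25 genes that act around the IGF2 ligand, IGF2 left out, 16 were tested: 10 rose, 4 fell and 2 missed the threshold (median 0.235). Beside these counts, 36.5% of all genes tested rose and 36.3% fell. The ligand-binding protein IGFBP3 was at 15.7 ± 0.555 CPM in hypoxia and 0.495 ± 0.150 CPM in normoxia, a log2 change of 4.97 ± 0.16. The stanniocalcins STC1 and STC2, which inhibit a protease that frees IGF from binding proteins, rose by 3.60 ± 0.08 and 3.03 ± 0.05. Among receptors, IGF2R, which clears IGF2, fell by 0.34 ± 0.04 on the log2 scale. For INSR the log2 change was -0.04 ± 0.04, not past the test. IGF1R rose by 0.22 ± 0.04, a call lost with library totals, where it was 0.07.

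Of 14 proteins linked to H19 or IGF2 RNA, microRNA processing included, 12 were tested: 2 rose and 10 fell (median -0.29). Of all genes tested, 36.5% rose and 36.3% fell. IGF2BP1 and IGF2BP3, which bind both RNAs, fell by 0.64 ± 0.04 and 0.68 ± 0.04. DROSHA, the nuclease that cuts out microRNA hairpins such as that of miR-675, fell to 56.0 ± 2.38 CPM in hypoxia, against 110 ± 3.46 CPM in normoxia. Its partner DGCR8 rose to 79.8 ± 2.39 CPM in hypoxia, against 47.5 ± 1.77 CPM in normoxia. These partners thus moved in opposite directions.

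The 19 tested genes of imprint maintenance and insulation split 5 risen, 10 fallen and 4 not past (median -0.25). Among all genes tested, 36.5% rose and 36.3% fell. TET2, which oxidises methylated cytosine, was at 150 ± 1.85 CPM in hypoxia and 47.9 ± 2.30 CPM in normoxia. UHRF1, which brings DNMT1 to replicated DNA, fell to 36.1 ± 16.2 CPM in hypoxia, against 79.8 ± 16.7 CPM in normoxia. SMC3, a cohesin subunit, fell by 0.82 ± 0.06 and MBD3 rose by 0.70 ± 0.07 on the log2 scale. CTCF, the insulator protein of the H19 control region, was named for its role and rose by 0.46 ± 0.05.

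Genes named in the literature as miR-675 targets went both ways: of 11 tested, 5 rose, 5 fell and 1 did not pass (median -0.07). All genes tested were also evenly split, with 36.5% risen and 36.3% fallen. HK2, hexokinase, was at 1466 ± 1.68 CPM in hypoxia and 156 ± 4.56 CPM in normoxia. TGFBI was at 3.01 ± 0.502 CPM in hypoxia and 0.319 ± 0.146 CPM in normoxia. RB1 rose by 1.19 ± 0.09 and the receptor TGFBR2 fell by 1.14 ± 0.08 on the log2 scale. Of 19 tested let-7 targets, which matter because H19 is reported to bind let-7, 5 rose, 11 fell and 3 did not pass (median -0.33). MYC fell to 323 ± 17.1 CPM in hypoxia, against 1001 ± 15.8 CPM in normoxia, and CDC25A fell by 1.84 ± 0.06 on the log2 scale. ITGB3 and IRS2 rose, by 2.09 ± 0.18 and 2.07 ± 0.05.

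Families of the other members held genes of both directions, as did all genes tested, of which 36.5% rose and 36.3% fell. Among 21 partners and relatives of CDKN1C, itself left out, 7 rose, 13 fell and 1 did not pass (median -0.23). CDKN1A, the sister inhibitor p21, was at 457 ± 18.4 CPM in hypoxia and 56.8 ± 2.93 CPM in normoxia. CDKN2D rose by 1.37 ± 0.12, and CDKN3, a phosphatase of the cycle, fell by 1.94 ± 0.13 on the log2 scale. A list of KCNQ and KCNE genes, calmodulins and channel partners (AKAP9, NEDD4L and SLC5A3), KCNQ1 left out, had 9 tested genes: 3 rose, 3 fell and 3 missed the threshold (median -0.02). KCNE1, the accessory subunit of the KCNQ1 channel, was at 0.872 ± 0.272 CPM in hypoxia and 0.202 ± 0.0520 CPM in normoxia. CALM2, a calmodulin gene, fell by 0.49 ± 0.08 on the log2 scale. KCNQ1 and KCNE1 were both low and both rose.

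Of 9 PHLDA relatives and inhibitors of AKT signalling, PHLDA2 left out, 3 rose, 3 fell and 3 did not pass (median 0.18). That split was near the one of all genes tested, 36.5% risen and 36.3% fallen. PIK3IP1, an inhibitor of PI3-kinase, was at 21.2 ± 0.740 CPM in hypoxia and 2.09 ± 0.242 CPM in normoxia. TRIB3 rose by 1.18 ± 0.04, PHLDB3 by 0.45 ± 0.11, and PHLDB2 fell by 0.67 ± 0.04 on the log2 scale. Of 8 tested SLC22 transporters, SLC22A18 left out, 1 rose, 3 fell and 4 did not pass (median -0.045). SLC22A23 was at 4.82 ± 0.231 CPM in hypoxia and 0.966 ± 0.179 CPM in normoxia, whereas the carnitine transporter SLC22A5 fell to 21.4 ± 1.40 CPM in hypoxia, against 43.5 ± 3.04 CPM in normoxia.

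The genes whose profile over the 6 libraries was nearest to H19 lay on other chromosomes. By Euclidean distance in centred log2 CPM they were TRIOBP (0.0629), CNTNAP1 (0.0659), JUNB (0.0787), AVPI1 (0.0790) and VKORC1 (0.0993). All of them were near 4-fold higher in hypoxia, such as JUNB at 606 ± 43.1 CPM in hypoxia and 148 ± 4.09 CPM in normoxia. A small distance requires a change like that of H19, so this fold follows from the measure. Among the other members the nearest was KCNQ1, at a distance of 0.858, ranked 934 among tested genes. CDKN1C followed at 0.907, SLC22A18 at 1.24, IGF2 at 1.29, PHLDA2 at 2.15 and KCNQ1OT1 at 2.39. IGF2 and KCNQ1 rest on few reads, so their distances also hold counting noise. Shared regulation was not tested.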

How the data were processed

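Total RNA depleted of ribosomal RNA was sequenced from both ends in stranded libraries, per the labels' protocols. Tools named in the submitters' processing notes are cutadapt, HISAT2 and RSEM, with GRCh38 (hg38) as the genome. Tool versions, the annotation and the strand setting were not found there. The deposited table has 251062 transcript rows with a length and, per the file headers, 1 expected count per library. Expected counts are reads that the authors' RSEM run divided among transcripts, so rows of a gene share reads. The 6 deposited FPKM columns were not used; FPKM was recomputed from expected counts, deposited (not effective) lengths and library totals.

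Rows were assigned to genes with GENCODE release 29 (202907 rows, 58478 genes). The 48155 rows without a gene, 6.12% to 6.39% of counts, were left out. Row lengths equal those of release 29 in 86.7% of the assigned rows. Gene sums were rounded, kept by filterByExpr, scaled by TMM and tested with edgeR 4.0.16 (R 4.3.3), two-sided, with Benjamini-Hochberg adjustment over 17396 genes and a threshold of 0.05. Transcript rows were fitted in the same way over 74527 rows. DESeq2 1.42.0, limma 3.58.1, other scalings and filters and leaving out each library were alternatives. Normalised levels are CPM with TMM factors; the error of a log2 change is its SE from the fit. Shares and ratios were compared with exact permutation tests over libraries, and the smallest p that 3 against 3 allows is 0.1.

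No pair of libraries agreed within sampling noise. On simulated counts for 17028 genes, edgeR recovered 65 of 83 changes of 1.5-fold, 51 of 55 of 2-fold and 62 of 62 of 4-fold, with 17 false calls. On simulated transcripts it recovered 0 of 70, 4 of 62 and 20 of 68, with 3 false calls. The simulation left 16828 genes and 68730 of 68930 transcripts unchanged, and changed only well-counted rows. In the data 72.8% of genes and 29.5% of transcripts passed, so the adjustment differs and these rates are not the power of the tests here. A transcript that did not pass is still weak evidence.

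Members, 18 gene lists and tests were chosen with earlier results of these data known. Named were all members, H19 rows holding 1% or more of the gene, the 2 most counted rows of other members, up to 4 genes per list with the largest changes past the threshold, 6 interval genes with the largest such changes and the 3 most expressed, and the 5 genes nearest to H19. Outside the rule, receptors, CTCF, OSBPL5 and marker genes were named for their role after their values were seen. COPG2IT1 was listed without an identifier. Sequences come from RefSeq and GENCODE tables; promoters were found for 1 of 7 members. Levels below 3 counts were treated as at the limit of detection. A sequence and single genes that the rule names are not reported here.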

Additional observations from a re-analysis of the deposited data

How the results depend on the processing

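The rises of H19, CDKN1C and SLC22A18 kept their direction and passed under every alternative run. For KCNQ1OT1 the log2 change was -0.026 with library totals, -0.016 with limma on log2(FPKM + 0.5), -0.023 with a pseudocount of 0.1 and -0.012 with 1, and 0.19 with upper-quartile scaling. For PHLDA2 it was 0.16 with library totals and 0.15 with limma at each of the 3 pseudocounts (adjusted p from 0.0600 to 0.0618), no longer past the threshold. KCNQ1 read from its most abundant transcript alone was 2.36, not past the threshold. The median over all genes moved to -0.13 with library totals. The cause of these differences was not tested. For KCNQ1, limma gave 1.82, 0.995 and 0.65 with pseudocounts of 0.1, 0.5 and 1, so its value shrank as the pseudocount grew. IGF2 was under the FPKM filter and its transcripts were untested, so those alternatives give no value. Genes past the threshold numbered 12670, and 8633 to 13458 under the alternatives.

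Leaving out each library in turn gave 2.01 to 2.09 for H19, 1.80 to 2.46 for IGF2, 1.30 to 1.40 for CDKN1C, 0.064 to 0.184 for KCNQ1OT1, 1.64 to 2.37 for KCNQ1, 0.23 to 0.35 for PHLDA2 and 0.98 to 1.12 for SLC22A18. The H19 to IGF2 ratio difference ran from -0.39 (without hypoxia C6) to 0.45, and was -0.16 without normoxia C2 and -0.21 without normoxia C3. The H19-202 share difference stayed between 8.64 and 8.94 points, and that of H19-203 between -5.68 and -2.51. The KCNQ1OT1 ratio differences ran from -2.24 to -1.51 for KCNQ1 and from -1.31 to -1.13 for CDKN1C. No paired analysis was possible because the columns carry no replicate number from the labels. Depth limits IGF2 and KCNQ1, which rest on few reads, and the division of reads among H19 models limits its transcript shares.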
